A study of Mus musculus with 6 samples.

Results

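The RNA levels of 43 genes of the lysosome and of its proton pump, the vacuolar H+-ATPase (V-ATPase), were followed in NMuMG cells during the first hours of TGFβ1 treatment. The genes were a list of symbols, and all 43 were found among the 21240 genes of the count table. By role they were 5 subunits of the membrane sector V0 of the pump, 8 subunits of its catalytic sector V1, 2 accessory proteins of the pump, 6 lysosomal membrane proteins, 8 proteases, 6 glycosidases, 6 lipid hydrolases or lipid-binding proteins of the lumen, and the 2 transcription factors Tfeb and Tfe3. NMuMG is an epithelial line from normal mouse mammary gland, and every culture was kept without serum and insulin for 6 h before treatment. Cells then received vehicle for 2 h (the buffer used to dilute TGFβ1, an acid solution with albumin), 5 ng/ml TGFβ1 for 2 h, or 5 ng/ml TGFβ1 for 12 h. Each of these 3 groups had 2 biological replicates, 6 libraries of stranded total RNA in all. Vehicle cells were taken only at 2 h, so in the 12 h comparison the effect of TGFβ1 and that of the longer time without serum cannot be told apart. The study's methods describe the replicates as independent of each other.

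Libraries held 14705886 to 23786993 counts over genes. All 43 genes passed the filter on low counts (at least 2 CPM, the count scaled to library size, in at least 2 libraries), as did 11080 genes in all. The list took 1.39% and 1.41% of the counts of a library in vehicle, 1.32% and 1.34% at 2 h, and 1.24% and 1.30% at 12 h. Over the 43 genes, replicates differed by a median of 0.10 on the log2 scale in the vehicle group, 0.17 in the 2 h group and 0.12 in the 12 h group. The labelled epithelial type was checked with 8 markers. Their summed level was 4959 to 5779 CPM in vehicle, 6439 to 6474 CPM at 2 h and 10320 to 10367 CPM at 12 h. The keratins behind this sum did not move together: Krt8 held 1015 to 1131 CPM in vehicle and 3294 to 3363 CPM at 12 h, Krt18 held 1916 to 2380 CPM and 6125 to 6242 CPM, and Krt19 was lower at 12 h, with 1664 to 1845 CPM in vehicle and 420 to 489 CPM at 12 h. Krt8, Krt18, Krt19 and Cdh1 were abundant, Krt7 was low, and Epcam, Cldn3 and Cldn7 were at or near 0 in every library. Markers of other cells that are rich in lysosomes were low. The 8 macrophage and leukocyte markers summed to 151 to 156 CPM in vehicle, 165 to 175 CPM at 2 h and 103 to 112 CPM at 12 h, almost all of it from Cd14, while Ptprc, Adgre1, Lyz2 and Tyrobp held at most 4 counts in a library. The 7 fibroblast markers summed to 3.57 to 5.24 CPM in vehicle, 9.12 to 9.76 CPM at 2 h and 14.8 to 16.6 CPM at 12 h. The part of these marker levels in the results below was not tested.

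Lysosomes are the acid organelles in which endocytosed and autophagic material is broken down. The V-ATPase makes them acid: its V1 sector hydrolyzes ATP in the cytosol, and its V0 sector carries protons through the membrane. The lumen holds proteases of the cathepsin family, glycosidases and lipid hydrolases, and loss of single members causes lysosomal storage diseases. Many of these genes share a promoter element with the core CACGTG, to which the MiT/TFE factors TFEB and TFE3 bind. Both factors are held in the cytosol by mTORC1, a kinase that is recruited to the lysosomal surface when amino acids are plentiful.

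The promoters are shown first because that element is the known sequence feature of lysosomal genes. Promoter windows from RefSeq (assembly GRCm38.p6, 250 bases before to 50 bases after an annotated start) were available for 35 of the 43 genes, in 43 sequences. Each was found once in NCBIM37, the build of the count table (mm9), and the coordinates below are on that build. CACGTG reads alike on both strands. It was present in the window of 12 of the 35 genes (34.3%) and of 8.09% of 27025 genes with a window. The longer palindrome TCACGTGA, which contains CACGTG, was present in 7 of 35 genes and in 1.12% of all genes. The 3 windows printed whole belong to a gene that rose at 12 h (Ctsd, cathepsin D), a gene that fell at 12 h (Atp6v1a, the catalytic A subunit of the pump), and the lysosomal membrane marker Lamp1, which did not pass the test in any comparison and has 4 copies of CACGTG. Capitals mark CACGTG, or TCACGTGA where the longer form is present.
Ctsd, chr7:149573683-149573982, minus strand: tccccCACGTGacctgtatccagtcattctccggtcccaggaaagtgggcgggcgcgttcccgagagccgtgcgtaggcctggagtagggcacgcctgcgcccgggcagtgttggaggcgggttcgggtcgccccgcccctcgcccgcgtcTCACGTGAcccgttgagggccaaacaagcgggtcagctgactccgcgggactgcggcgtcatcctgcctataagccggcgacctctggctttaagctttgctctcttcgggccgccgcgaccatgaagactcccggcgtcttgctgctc
Atp6v1a, chr16:44139323-44139622, minus strand: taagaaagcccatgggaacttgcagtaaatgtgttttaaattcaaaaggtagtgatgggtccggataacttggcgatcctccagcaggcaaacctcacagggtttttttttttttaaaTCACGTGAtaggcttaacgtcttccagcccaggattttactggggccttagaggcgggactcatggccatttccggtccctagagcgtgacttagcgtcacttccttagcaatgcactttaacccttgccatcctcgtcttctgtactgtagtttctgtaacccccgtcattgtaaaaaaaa
Lamp1, chr8:13158911-13159210, plus strand: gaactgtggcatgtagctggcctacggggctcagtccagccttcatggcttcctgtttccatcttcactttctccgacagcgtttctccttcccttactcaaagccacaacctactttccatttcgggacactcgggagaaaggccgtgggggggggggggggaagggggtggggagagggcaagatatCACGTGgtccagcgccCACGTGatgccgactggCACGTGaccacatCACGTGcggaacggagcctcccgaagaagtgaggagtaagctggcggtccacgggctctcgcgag

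TCACGTGA was also found in Atp6v0d1, Atp6v0e, Cln3, Ctsa and Mcoln1, shown in windows of 40 bases with the motif in capitals. Its first base lies at position -4 relative to the annotated start in Atp6v0d1, 3 in Atp6v0e, -122 in Cln3, -13 in Ctsa and -46 in Mcoln1. In the windows printed whole it lies at -99 in Ctsd and -132 in Atp6v1a. In Ctsa a second copy begins at position 5, and its first 7 bases are at the end of the window below.
Atp6v0d1, chr8:108089945-108089984, minus strand: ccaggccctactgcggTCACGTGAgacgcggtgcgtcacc
Atp6v0e, chr17:26813327-26813366, plus strand: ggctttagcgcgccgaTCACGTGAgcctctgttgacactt
Cln3, chr7:133726849-133726888, minus strand: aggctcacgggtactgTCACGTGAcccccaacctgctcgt
Ctsa, chr2:164659244-164659283, plus strand: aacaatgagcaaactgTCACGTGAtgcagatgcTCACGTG
Mcoln1, chr8:3500457-3500496, plus strand: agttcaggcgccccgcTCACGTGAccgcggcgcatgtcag

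CACGTG without the longer form was present in Atp6v0b, Ctsl, Gaa, Glb1 and Lamp1. Members with the motif moved in both directions. At 12 h, of the 12 members with CACGTG 2 rose (Ctsd and Ctsl), 2 fell (Atp6v1a and Gaa) and 8 did not pass the test (adjusted p under 0.05), with a median log2 fold change (log2FC) of -0.17. Of the 23 members whose window lacked it 5 rose, 8 fell and 10 did not pass, with a median of -0.07. Over all genes tested at 12 h, 21.8% rose and 21.5% fell. A match of letters describes the window and says nothing of whether a factor was bound there.

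TGFβ1 for 2 h changed few of the 43 genes. Compared with vehicle, 2 rose, the V0 subunit Atp6v0c and the transcription factor Tfeb, and 0 fell. Calls are those below an adjusted p of 0.05 in the quasi-likelihood test of edgeR, with Benjamini-Hochberg adjustment over all 11080 genes. Over all genes tested, 9.91% rose and 5.25% fell at 2 h (15.2% in all), so the share of members called was below the background in both directions. At an unadjusted p under 0.05 there were 4 members higher and 2 lower, against 16.9% and 12.8% of all genes. DESeq2 called 3 higher and 2 lower (Neu1 and Cln3), and limma-voom 2 and 0. With a replicate block, although the labels do not pair the samples, Neu1 and Cln3 were called lower and Atp6v1g1 higher as well. The shares of all genes called in these fits are not given. With total counts in place of TMM Neu1 and Cln3 were also called lower (adjusted p = 0.024 and 0.026 by edgeR). The calls of Atp6v0c and Tfeb did not hold whichever library was left out, and the shares of all genes called in those fits are not given. With an absolute log2FC above 1 asked for as well, 1 member was higher (Atp6v0c) and 0 lower, against 4.23% and 2.01% of all genes (6.25% in all). The median log2FC of the members was 0.06, and that of all genes was -0.01.

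At 12 h members were called in both directions, as were genes over the whole series. Compared with vehicle, 8 members rose and 14 fell, while 21.8% of all genes rose and 21.5% fell (43.3% in all), so risers (18.6% of members) were slightly below the background and fallers (32.6%) above it. Asking also for an absolute log2FC above 1, 1 member was higher (Atp6v1g1, 8.03% of all genes) and 2 were lower (Neu1 and Atp6v1b2, 11.6% of all genes), where 19.6% of all genes passed in either direction. The median log2FC was -0.11 for the members and 0.02 for all genes. With TMM scaling the sum of the 43 genes moved little. It was 13312 and 13229 CPM in vehicle, 13707 and 13458 CPM at 2 h, and 12808 and 13436 CPM at 12 h. Their share of all counts, without that scaling, was 1.39% and 1.41% in vehicle and lower at 12 h, at 1.24% and 1.30%. Scaling by total counts, without TMM factors, moved the median of all genes at 12 h by -0.13 and the calls of members to 5 higher and 19 lower, where 16.5% of all genes were then called higher and 27.5% lower. Fits without any one of the vehicle or 12 h libraries called fewer members. The shares of all genes called in those fits are not given, so the loss is not read as a trait of the list. In these fits 12 of the 22 calls held whichever library was left out: Atp6v1g1 and Ctsl among the genes that rose, and Atp6v0a1, Atp6v1a, Atp6v1b2, Atp6v1c1, Atp6v1d, Atp6v1h, Ctsz, Gaa, Neu1 and Ppt1 among those that fell. RNA per cell and the share of cells expressing a gene cannot be told apart in these bulk libraries.

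**Figure D1:**
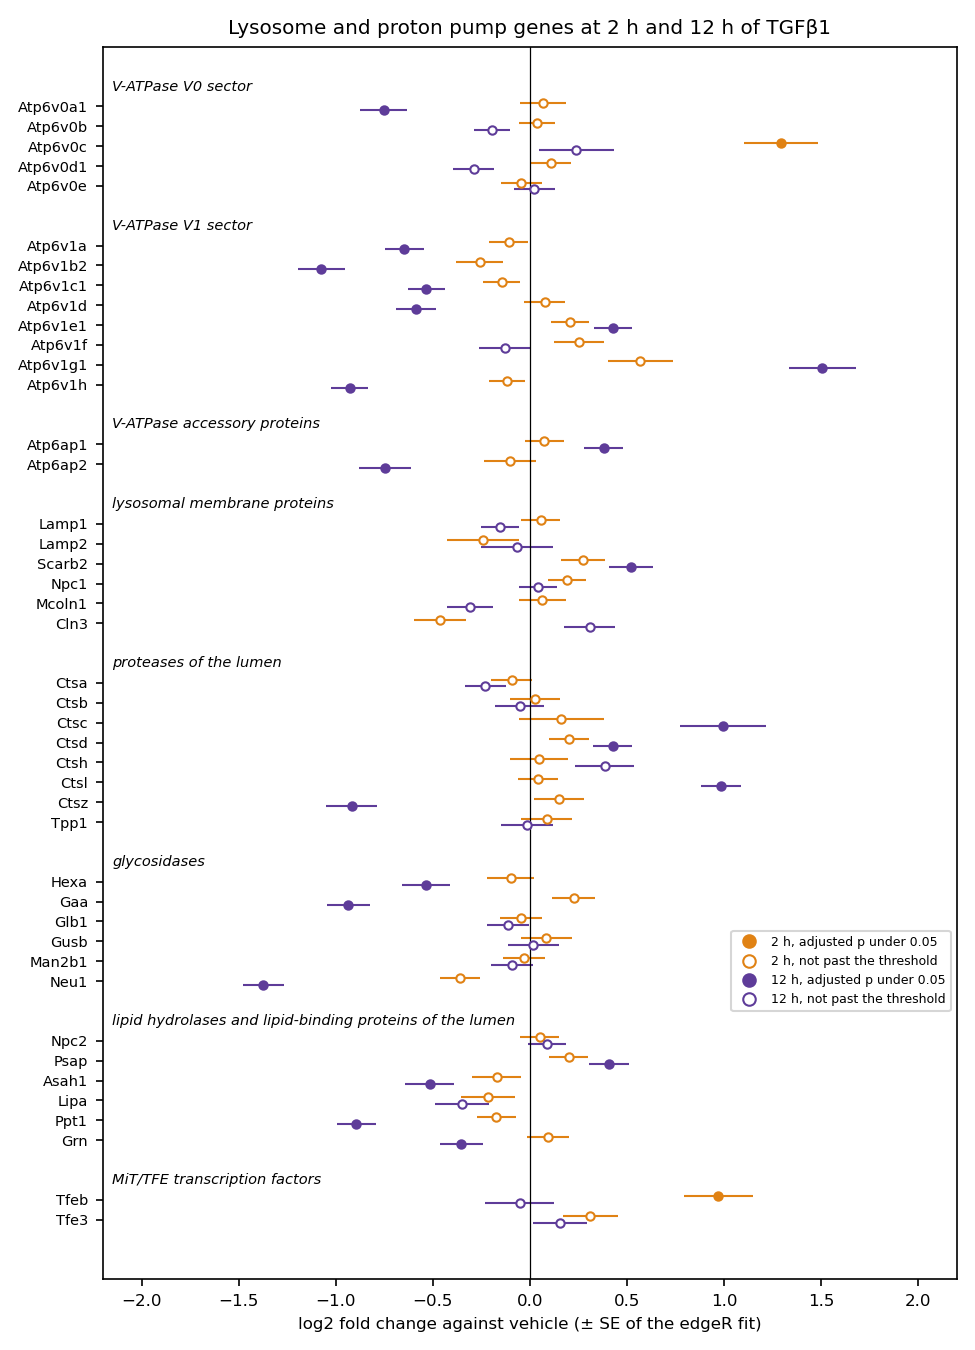
Log2 fold change against vehicle (horizontal axis) of each of the 43 genes, grouped by role, at 2 h (orange) and 12 h (purple) of TGFβ1, with bars of ± SE of the edgeR fit; filled points have an adjusted p under 0.05. At 2 h only Atp6v0c and Tfeb are filled, and at 12 h 8 filled points lie to the right of 0 and 14 to the left, from -1.37 (Neu1) to 1.51 (Atp6v1g1).

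In the direct comparison of 12 h with 2 h, 4 members were higher and 16 lower, against 15.2% and 18.9% of all genes (34.1% in all). With an absolute log2FC above 1 as well, 0 were higher and 5 lower, against 4.5% and 9.87% of all genes (14.4% in all). These 3 comparisons share libraries. In 17 genes no comparison passed the threshold: Atp6v0b, Atp6v0e, Atp6v1f, Ctsa, Ctsb, Ctsh, Glb1, Gusb, Lamp1, Lamp2, Lipa, Man2b1, Mcoln1, Npc1, Npc2, Tfe3 and Tpp1.

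The V1 sector, where ATP is hydrolyzed, had the largest share of changed members at 12 h of the roles with more than 2 genes: of 8 subunits 5 fell, 2 rose and Atp6v1f did not pass the test. These are 62.5% and 25% of the sector, where 21.5% of all genes fell and 21.8% rose. Atp6v1b2 (chr8:71612545-71637610, plus strand), the widely expressed B subunit that forms the nucleotide-binding sites together with A, held 525 and 502 CPM in vehicle, 470 and 389 CPM at 2 h, and 239 and 249 CPM at 12 h. Both 12 h libraries lay below all others, and the log2FC at 12 h was -1.07 ± 0.12 (SE, adjusted p = 0.00074 by edgeR). Atp6v1h (chr1:5073254-5152630, plus strand), the regulatory H subunit, held 195 and 208 CPM in vehicle, 187 and 185 CPM at 2 h, and 108 and 103 CPM at 12 h. The vehicle and 2 h libraries were close, and the 12 h libraries were well below them, with a log2FC of -0.93 ± 0.10 (SE, adjusted p = 0.00049 by edgeR).

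Atp6v1a (chr16:44085515-44139818, minus strand) held 581 and 612 CPM in vehicle, 572 and 535 CPM at 2 h, and 389 and 373 CPM at 12 h. The 12 h libraries were the lowest, and the log2FC was -0.65 ± 0.10 (SE, adjusted p = 0.0025 by edgeR). Atp6v1d, a subunit of the central rotor, held 149 and 140 CPM in vehicle, 161 and 144 CPM at 2 h, and 95.1 and 97.2 CPM at 12 h, a log2FC of -0.59 ± 0.10 at 12 h (SE, adjusted p = 0.0045 by edgeR). Atp6v1c1, the C subunit that joins the stalks of V1 to V0, fell by 0.53 on the log2 scale (adjusted p = 0.0047 by edgeR), from 219 and 236 CPM in vehicle and 205 and 206 CPM at 2 h to 155 and 160 CPM at 12 h. The calls against vehicle of the V1 genes that fell held without any single library.

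The 2 V1 genes that rose encode the stalk subunits E and G, which pair with each other in the pump. Atp6v1e1 (chr6:120745263-120772703, minus strand) held 270 and 252 CPM in vehicle, 293 and 310 CPM at 2 h, and 356 and 346 CPM at 12 h. Its libraries did not overlap between the groups, with a log2FC of 0.43 ± 0.10 at 12 h (SE, adjusted p = 0.013 by edgeR), but the call was lost without vehicle replicate 2 or without either 12 h library (adjusted p up to 0.097 by edgeR). Atp6v1g1 (chr4:63205806-63211784, plus strand) held 74.6 and 60.1 CPM in vehicle, 113 and 87.4 CPM at 2 h, and 204 and 179 CPM at 12 h. The groups did not overlap, with vehicle lowest and 12 h highest. The log2FC was 0.57 ± 0.17 at 2 h (SE, adjusted p = 0.072 by edgeR, just outside the threshold) and 1.51 ± 0.17 at 12 h (SE, adjusted p = 0.00074 by edgeR), the highest of the list. With a replicate block the rise of Atp6v1g1 at 2 h passed as well. Only 37.7% of the 50-base stretches of its exons occur once in the genome, where all but 3 of the 41 genes with a position had over 90%. The authors kept reads with a unique match.

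**Figure D2:**
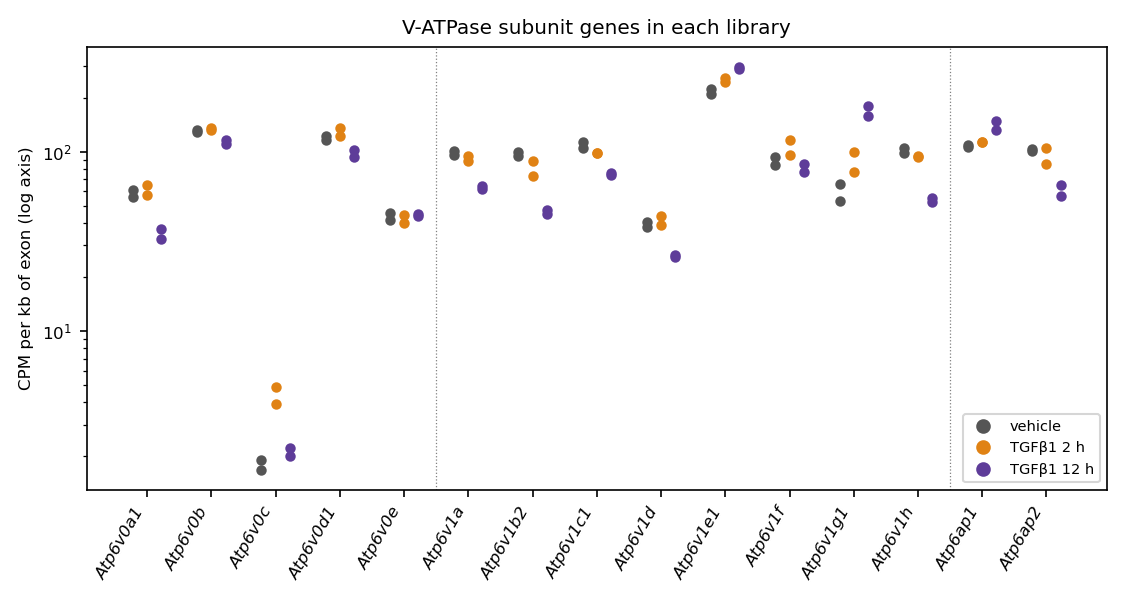
Level of each V-ATPase gene in each library, in TMM-normalized CPM per kb of exon on a log axis, with vehicle in grey, 2 h in orange and 12 h in purple; dotted lines separate V0, V1 and accessory genes. Among V1 genes the 12 h points are below the others for Atp6v1a, Atp6v1b2, Atp6v1c1, Atp6v1d and Atp6v1h and above them for Atp6v1e1 and Atp6v1g1, and Atp6v0c lies far below the other subunits.

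Levels per kb of exon set subunits side by side only roughly. They rest on the full annotated exon length, with no correction for the transcripts used or for stretches that occur more than once. The share of 50-base stretches found once was 37.7% for Atp6v1g1 and 100% for Atp6v1e1. In vehicle cells Atp6v1e1 was highest at 217 ± 10.8 CPM per kb (SD, n = 2). Atp6v1a, Atp6v1b2, Atp6v1h and Atp6v1c1 stood close together, at 98.7 ± 3.60, 96.8 ± 3.06, 102 ± 4.52 and 108 ± 5.69 CPM per kb. At 12 h the same 4 genes had 63.0 ± 1.97, 46.0 ± 1.45, 53.6 ± 1.86 and 74.96 ± 1.78 CPM per kb, while Atp6v1e1 had 292 ± 6.18 and Atp6v1g1 169 ± 15.9 CPM per kb.

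In the V0 sector, which holds the proton channel, 1 of 5 subunits fell at 12 h (20%, against 21.5% of all genes) and 0 rose (21.8% of all genes). The difference from V1 was not tested. The gene that fell was Atp6v0a1 (chr11:100870766-100925033, plus strand), an isoform of the large a subunit along which protons enter and leave. It held 397 and 366 CPM in vehicle, 426 and 374 CPM at 2 h, and 212 and 241 CPM at 12 h, with a log2FC of -0.75 ± 0.12 (SE, adjusted p = 0.0030 by edgeR). Atp6v0d1, the d subunit that couples the rotor to V0, was just outside the threshold at 12 h. It held 207 and 220 CPM in vehicle, 218 and 241 CPM at 2 h, and 166 and 183 CPM at 12 h, a log2FC of -0.29 ± 0.11 (SE, adjusted p = 0.068 by edgeR). Against 2 h it was called lower (log2FC -0.40, adjusted p = 0.030 by edgeR), a call that was lost without any library other than 2 h replicate 1 (adjusted p up to 0.167). Atp6v0b and Atp6v0e, which encode a proteolipid of the ring and a small membrane subunit, had log2FC of -0.19 and 0.02 at 12 h.

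Atp6v0c, the main proteolipid of the ring, was the exception in time. It held 5.71 and 6.43 CPM in vehicle, 13.2 and 16.5 CPM at 2 h, and 6.84 and 7.49 CPM at 12 h. Both 2 h libraries were above all others, with a log2FC of 1.29 ± 0.19 at 2 h (SE, adjusted p = 0.0067 by edgeR) and 0.24 ± 0.19 at 12 h (SE, adjusted p = 0.356 by edgeR). Without vehicle replicate 1 the call at 2 h was lost (log2FC 1.21, adjusted p = 0.060 by edgeR). Its level in vehicle was 1.79 ± 0.15 CPM per kb of exon (SD, n = 2), far under the 130 ± 2.68 CPM per kb of Atp6v0b. Of its exonic 50-base stretches 71.5% occur once in the genome, and whether the low level comes from reads that were not assigned was not tested. The corresponding share was 78.3% for Atp6v1f.

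The 2 accessory proteins of the pump moved in opposite directions at 12 h. Atp6ap2, also known as the prorenin receptor, held 271 and 265 CPM in vehicle, 275 and 225 CPM at 2 h, and 171 and 149 CPM at 12 h. The 12 h libraries were the lowest, with a log2FC of -0.74 ± 0.13 (SE, adjusted p = 0.0048 by edgeR), and without 12 h replicate 2 the adjusted p was 0.053. Atp6ap1, which helps to assemble V0, held 321 and 330 CPM in vehicle, 342 and 343 CPM at 2 h, and 402 and 446 CPM at 12 h, a log2FC of 0.38 ± 0.10 (SE, adjusted p = 0.022 by edgeR). That call was lost without any of the 4 vehicle and 12 h libraries (adjusted p up to 0.153) and when total counts replaced TMM (log2FC 0.25, adjusted p = 0.090 by edgeR).

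Among the 8 proteases of the lumen, 3 cathepsins rose at 12 h (Ctsl, Ctsc and Ctsd) and Ctsz fell, while Ctsa, Ctsb, Ctsh and Tpp1 did not pass the test. Of the list 37.5% rose and 12.5% fell, against 21.8% and 21.5% of all genes. Ctsl (chr13:64464522-64471614, minus strand), the endopeptidase cathepsin L, held 565 and 506 CPM in vehicle, 554 and 548 CPM at 2 h, and 1045 and 1075 CPM at 12 h. The vehicle and 2 h libraries overlapped and the 12 h libraries were far above both, with a log2FC of 0.99 ± 0.10 (SE, adjusted p = 0.00055 by edgeR). This call held without any single library. Ctsc, the dipeptidyl peptidase that activates granule proteases, held 57.2 and 43.5 CPM in vehicle, 68.3 and 44.5 CPM at 2 h, and 100.4 and 100.6 CPM at 12 h. Its log2FC was 1.00 ± 0.22 (SE, adjusted p = 0.011 by edgeR). Its replicates differed most of the 43 genes in vehicle and at 2 h, by 0.39 and 0.62 on the log2 scale, and the call was lost without vehicle replicate 2 or without either 12 h library (adjusted p up to 0.073).

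Ctsd (chr7:149557053-149573943, minus strand), the aspartic protease cathepsin D, was the most abundant of the 41 genes with an exon length, at 669 ± 3.07 CPM per kb of exon in vehicle (SD, n = 2). It held 1691 and 1680 CPM in vehicle, 1901 and 1979 CPM at 2 h, and 2179 and 2350 CPM at 12 h. The groups did not overlap, with a log2FC of 0.43 ± 0.10 at 12 h (SE, adjusted p = 0.015 by edgeR). The call was lost without any of the vehicle or 12 h libraries (adjusted p up to 0.116) and with total counts in place of TMM (log2FC 0.30, adjusted p = 0.063 by edgeR). Ctsz (chr2:174252994-174264540, minus strand), the carboxypeptidase cathepsin Z, held 105 and 92.4 CPM in vehicle, 107 and 112 CPM at 2 h, and 46.9 and 57.5 CPM at 12 h. The 12 h libraries were below all others, with a log2FC of -0.92 ± 0.13 (SE, adjusted p = 0.0020 by edgeR). Ctsh, an aminopeptidase, was just outside the threshold at 0.38 ± 0.15 (SE, adjusted p = 0.081 by edgeR), with 168 and 153 CPM in vehicle and 183 and 237 CPM at 12 h. Ctsb, among the major cysteine proteases of the lysosome, had a log2FC of -0.05 at 12 h (adjusted p = 0.770 by edgeR).

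**Figure D3:**
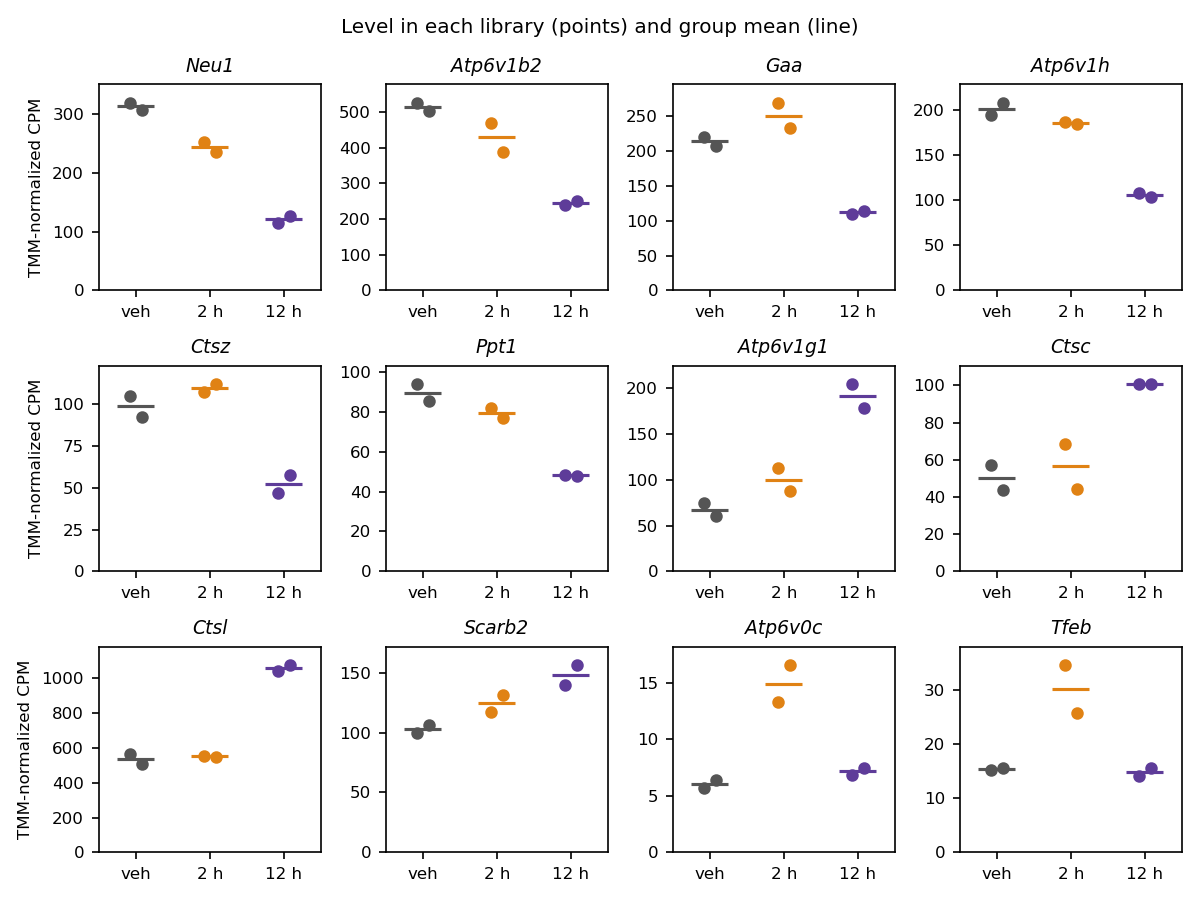
TMM-normalized CPM (vertical axes, from 0) in each library of vehicle, 2 h and 12 h, for the 6 genes that fell most and the 4 that rose most at 12 h and the 2 that rose at 2 h; points are libraries and lines group means. Ctsl is at 506 to 565 CPM in the vehicle and 2 h libraries and at 1045 and 1075 CPM at 12 h, while Atp6v0c and Tfeb are high at 2 h alone.

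Of the 6 glycosidases 3 fell at 12 h (50%, against 21.5% of all genes), 0 rose, and Glb1, Gusb and Man2b1 did not pass the test. Neu1 (chr17:35068198-35072898, plus strand), the sialidase that removes sialic acid from glycoproteins, had the largest fall of the 43 genes. It held 318 and 307 CPM in vehicle, 253 and 234 CPM at 2 h, and 114 and 127 CPM at 12 h. The groups did not overlap, and the log2FC was -0.36 ± 0.10 at 2 h (SE, adjusted p = 0.065 by edgeR, just outside the threshold) and -1.37 ± 0.11 at 12 h (SE, adjusted p = 0.00017 by edgeR). The fall at 2 h passed with a replicate block, with DESeq2 and with total counts in place of TMM. Ctsa, the protease that binds and protects Neu1 protein, held 541 and 519 CPM in vehicle and 424 and 481 CPM at 12 h, a log2FC of -0.23 ± 0.11 (SE, adjusted p = 0.127 by edgeR). Glb1, the galactosidase of the same complex, had a log2FC of -0.11 ± 0.11 (SE, adjusted p = 0.439 by edgeR).

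Gaa (chr11:119129201-119146768, plus strand), the acid glucosidase that breaks down lysosomal glycogen, held 220 and 207 CPM in vehicle, 268 and 232 CPM at 2 h, and 109 and 114 CPM at 12 h. The 2 h libraries were the highest and the 12 h libraries the lowest. Against vehicle the log2FC was 0.23 ± 0.11 at 2 h (SE, adjusted p = 0.228 by edgeR) and -0.94 ± 0.11 at 12 h (SE, adjusted p = 0.00088 by edgeR). Hexa, the α subunit of β-hexosaminidase, held 118 and 103 CPM in vehicle, 110 and 95.4 CPM at 2 h, and 72.9 and 79.0 CPM at 12 h, a log2FC of -0.54 ± 0.12 (SE, adjusted p = 0.013 by edgeR). Its call was lost without vehicle replicate 1 or without either 12 h library (adjusted p up to 0.097). Summed over the 6 glycosidases the level was 1035 and 996 CPM in vehicle, 1004 and 942 CPM at 2 h, and 641 and 695 CPM at 12 h. Over the 8 proteases the same sum was 3803 and 3731 CPM in vehicle, 3989 and 4105 CPM at 2 h, and 4610 and 5041 CPM at 12 h. The rise of that sum lay in Ctsd and Ctsl more than in the class. Their group means were 1685 and 535 CPM in vehicle and 2264 and 1060 CPM at 12 h.

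Among the 6 lipid hydrolases and lipid-binding proteins, 3 fell at 12 h (Ppt1, Asah1 and Grn) and Psap rose, 50% and 16.7% of the list against 21.5% and 21.8% of all genes. Ppt1 (chr4:122513485-122536418, plus strand), which removes palmitate from proteins, held 93.8 and 85.2 CPM in vehicle, 81.9 and 76.9 CPM at 2 h, and 48.5 and 47.9 CPM at 12 h. The 12 h libraries were the lowest, with a log2FC of -0.89 ± 0.10 (SE, adjusted p = 0.00074 by edgeR). Asah1, the acid ceramidase, fell by 0.52 on the log2 scale (adjusted p = 0.017 by edgeR), from 473 and 451 CPM in vehicle to 326 and 320 CPM at 12 h. Grn, the precursor of the granulins, was the gene just inside the threshold, with 470 and 529 CPM in vehicle, 528 and 538 CPM at 2 h, and 373 and 409 CPM at 12 h. Its log2FC was -0.35 ± 0.11 (SE, adjusted p = 0.039 by edgeR).

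Psap, the precursor of the saposins that present sphingolipids to their hydrolases, held 960 and 1038 CPM in vehicle, 1129 and 1165 CPM at 2 h, and 1293 and 1358 CPM at 12 h. The groups did not overlap, with a log2FC of 0.41 ± 0.10 (SE, adjusted p = 0.018 by edgeR). The calls of Asah1, Grn and Psap at 12 h were each lost without any of the 4 vehicle and 12 h libraries, with adjusted p up to 0.107, 0.210 and 0.120. That of Psap was also lost with total counts in place of TMM (log2FC 0.28, adjusted p = 0.078 by edgeR). Lipa, the acid lipase, had a log2FC of -0.35 ± 0.14 (SE, adjusted p = 0.085 by edgeR) and Npc2, which carries cholesterol within the lumen, 0.09 ± 0.10 (SE, adjusted p = 0.507 by edgeR).

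Of the 6 lysosomal membrane proteins 1 rose at 12 h (16.7%, against 21.8% of all genes) and 0 fell (21.5% of all genes). Lamp1 (chr8:13159135-13175338, plus strand), a heavily glycosylated protein that lines the membrane, held 1151 and 1167 CPM in vehicle, 1157 and 1253 CPM at 2 h, and 1055 and 1028 CPM at 12 h. Its log2FC at 12 h was -0.15 ± 0.10 (SE, adjusted p = 0.257 by edgeR). Lamp2, its relative with a part in autophagy, held 511 and 477 CPM in vehicle, 487 and 350 CPM at 2 h, and 524 and 420 CPM at 12 h. Its replicates were far apart in both treated groups and overlapped with vehicle, with a log2FC of -0.07 ± 0.18 (SE, adjusted p = 0.801 by edgeR). Scarb2, the receptor that delivers glucocerebrosidase to lysosomes, was the member that rose. It held 99.8 and 106 CPM in vehicle, 117 and 131 CPM at 2 h, and 140 and 156 CPM at 12 h, a log2FC of 0.52 ± 0.11 (SE, adjusted p = 0.010 by edgeR) that was lost without vehicle replicate 1 or 12 h replicate 2 (adjusted p up to 0.080).

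Cln3, a membrane protein whose loss causes juvenile Batten disease, was lowest at 2 h. Against vehicle that difference did not pass in the main fit, but did with a replicate block, DESeq2 or total counts. Cln3 held 40.6 and 34.7 CPM in vehicle, 29.4 and 25.2 CPM at 2 h, and 46.5 and 46.7 CPM at 12 h. The 2 h libraries were the lowest and the 12 h libraries the highest. The log2FC was -0.46 ± 0.13 at 2 h (SE, adjusted p = 0.065 by edgeR), 0.31 ± 0.13 at 12 h (SE, adjusted p = 0.106 by edgeR), and 0.77 ± 0.13 for 12 h against 2 h (SE, adjusted p = 0.0061 by edgeR). Without either 12 h library the last of these did not pass (adjusted p up to 0.055). Mcoln1, the calcium channel TRPML1, had 104 and 108 CPM in vehicle and 81.5 and 90.05 CPM at 12 h, a log2FC of -0.31 ± 0.12 (SE, adjusted p = 0.079 by edgeR). Npc1, the cholesterol exporter, had a log2FC of 0.04 ± 0.10 at 12 h (SE, adjusted p = 0.747 by edgeR).

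Tfeb, the factor known as a master regulator of lysosomal genes, was high at 2 h alone. It held 15.1 and 15.5 CPM in vehicle, 34.5 and 25.6 CPM at 2 h, and 14.1 and 15.5 CPM at 12 h. Both 2 h libraries were above all others, although they were far apart from each other, with a log2FC of 0.97 ± 0.18 at 2 h (SE, adjusted p = 0.015 by edgeR) and -0.05 ± 0.18 at 12 h (SE, adjusted p = 0.835 by edgeR). The call at 2 h is among the less firm: without vehicle replicate 1 or 2 the adjusted p was 0.094 or 0.076, without 12 h replicate 1 or 2 it was 0.052, and in a fit of vehicle and 2 h alone it was 0.052 as well. Tfe3, its relative, held 39.4 and 45.0 CPM in vehicle, 47.0 and 57.7 CPM at 2 h, and 44.9 and 49.1 CPM at 12 h. Its log2FC was 0.31 ± 0.14 at 2 h (SE, adjusted p = 0.198 by edgeR) and 0.16 ± 0.14 at 12 h (SE, adjusted p = 0.411 by edgeR).

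Between 2 h and 12 h of TGFβ1 the genes that differed were for the most part those already named. Gaa had the largest fall, with a log2FC of -1.16 ± 0.11 (SE, adjusted p = 0.00079 by edgeR), followed by Ctsz at -1.07, Atp6v0c at -1.06, Tfeb at -1.02 and Neu1 at -1.01. The 4 that rose were Ctsl at 0.94 ± 0.10 (SE, adjusted p = 0.0012 by edgeR), Atp6v1g1 at 0.94, Ctsc at 0.83 and Cln3 at 0.77. Just inside the threshold stood Atp6v0d1 (adjusted p = 0.030 by edgeR) and Hexa (adjusted p = 0.035 by edgeR), and just outside it Mcoln1 and Atp6ap1 (adjusted p = 0.053 and 0.055 by edgeR). Of the 20 calls 9 held without any single library: Ctsl, Atp6v0a1, Atp6v1b2, Atp6v1d, Atp6v1h, Ctsz, Gaa, Neu1 and Ppt1. Fewer members were called without either 12 h library, and the shares of all genes called in those fits are not given.

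A second list of 143 genes set the members beside the rest of the pathway: other pump subunits, hydrolases and membrane proteins, the sorting machinery, the amino acid sensing complexes of the lysosomal surface, and autophagy genes. Of these, 126 passed the filter. For fits that left out a library, here and below, the shares of all genes called are not given. At 2 h, 6 rose (4.76%) and 4 fell (3.17%), against 9.91% and 5.25% of all genes. The counts at 2 h were not stable: 3 rose and 7 fell with total counts in place of TMM, 2 rose and at most 1 fell when any one of the vehicle or 12 h libraries was left out, 6 rose and 8 fell without 2 h replicate 1, and 4 rose and 3 fell without 2 h replicate 2. At 12 h, 18 rose (14.3%) and 41 fell (32.5%), against 21.8% and 21.5% of all genes, with a median log2FC of -0.22. With total counts in place of TMM fewer of them rose at 12 h, and all 41 falls were still called. At 12 h against 2 h, 10 rose (7.94%) and 36 fell (28.6%), against 15.2% and 18.9% of all genes. The largest rises were those of Ctse (log2FC 2.05), Atg9b (1.00), Map1lc3a (0.90), Calcoco1 (0.74) and Mfsd8 (0.62), and the largest falls were those of Sgsh (-3.94), Rragb (-2.34), Atp6v0e2 (-2.09), Gm2a (-1.31) and Sort1 (-1.26). In this contrast 2 rose and 10 fell without 12 h replicate 1, and 2 rose and 15 fell without 12 h replicate 2, while the rise of Mfsd8 was lost without any one library other than 2 h replicate 1 (adjusted p up to 0.156 by edgeR). Against vehicle at 12 h, 9 rose and 23 fell without 12 h replicate 1, and 6 rose and 29 fell without 12 h replicate 2. By list, leaving out any one of the vehicle or 12 h libraries gave 6 to 9 falls among the other hydrolases, 3 to 5 among the other membrane proteins and transporters, 4 to 5 among genes of enzyme delivery and 6 to 7 among amino acid sensing genes, with 0 rises in both of the latter.

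Among the other pump genes, Atp6v0e2, a paralog of Atp6v0e, held 43.1 and 37.4 CPM in vehicle, 36.4 and 33.0 CPM at 2 h, and 8.84 and 7.49 CPM at 12 h, a log2FC of -2.30 ± 0.15 (SE, adjusted p = 0.00011 by edgeR). The a subunit isoforms Atp6v0a2 and Tcirg1 did not pass the test. The isoform genes Atp6v0a4, Atp6v0d2, Atp6v1b1, Atp6v1c2, Atp6v1e2, Atp6v1g2 and Atp6v1g3, several of them known from kidney, bone or brain, had at most 14 counts in a library and were not tested.

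Of 34 other hydrolases and cofactors 12 fell at 12 h (35.3%) and 1 rose (2.94%), against 21.5% and 21.8% of all genes. Sgsh, the sulfamidase of heparan sulfate breakdown, held 40.0 and 32.7 CPM in vehicle, 30.7 and 23.7 CPM at 2 h, and 2.22 and 1.28 CPM at 12 h. The 12 h libraries were far below all others, a log2FC of -4.36 ± 0.29 (SE, adjusted p = 0.00010 by edgeR). Ctse, an aspartic protease of endosomes, was the hydrolase that rose, from 21.7 and 16.6 CPM in vehicle to 33.2 and 33.1 CPM at 2 h and 137 and 138 CPM at 12 h, with a log2FC of 0.79 at 2 h and 2.84 at 12 h (adjusted p = 0.014 and 5.0e-05 by edgeR). Its call at 2 h was lost without vehicle replicate 2 or either 12 h library (adjusted p up to 0.065).

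Of 20 other membrane proteins and transporters 9 fell at 12 h (45%) and 1 was called higher (5%), against 21.5% and 21.8% of all genes. The latter, Slc11a1, a metal transporter of phagosomes, held 0.82 and 0.57 CPM in vehicle, 1.72 and 2.17 CPM at 2 h and 2.05 and 2.87 CPM at 12 h. It passed the filter on low counts only through treated libraries, so its calls at 2 h and 12 h, which are in the counts above, are not read as a result. Slc38a9 and Tmem55b, an amino acid sensor of the lysosomal membrane and a membrane protein that helps to position lysosomes, fell at 2 h, by 0.55 and 0.40 on the log2 scale (adjusted p = 0.036 and 0.045 by edgeR). Both calls were lost when any one library was left out, other than 2 h replicate 1 for Slc38a9 (adjusted p up to 0.216 and 0.254). Of 17 genes of enzyme delivery 6 fell (35.3%) and 3 rose (17.6%) at 12 h, against 21.5% and 21.8% of all genes. Sort1, the sorting receptor sortilin, was lowest at -1.54 ± 0.24 (SE, adjusted p = 0.0025 by edgeR).

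Of 17 amino acid sensing genes 8 fell at 12 h (47.1%) and 2 rose (11.8%), against 21.5% and 21.8% of all genes. Flcn, which with its partners activates the Rag GTPases that hold TFEB and TFE3 in the cytosol, held 163 and 132 CPM in vehicle, 85.8 and 87.3 CPM at 2 h, and 47.8 and 54.9 CPM at 12 h. The groups did not overlap and the fall was present at both times, with a log2FC of -0.77 ± 0.13 at 2 h and -1.52 ± 0.14 at 12 h (SE, adjusted p = 0.013 and 0.00030 by edgeR). Without vehicle replicate 1 the call at 2 h was lost (adjusted p = 0.075 by edgeR). Tsc1, a brake on mTORC1, also fell at 2 h (log2FC -0.50, adjusted p = 0.025 by edgeR), a call that was lost when any one of the vehicle or 12 h libraries was left out (adjusted p up to 0.133). Rragb, a Rag GTPase, held 14.6 and 17.95 CPM in vehicle, 15.5 and 11.4 CPM at 2 h, and 2.53 and 2.77 CPM at 12 h, with a log2FC of -2.62 ± 0.23 at 12 h (SE, adjusted p = 0.00028 by edgeR).

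Of 35 autophagy genes 11 rose at 12 h (31.4%) and 5 fell (14.3%), against 21.8% and 21.5% of all genes. Without 12 h replicate 1 or 2 the counts were 7 and 3 or 5 and 4, without either vehicle library 6 and 4, and with total counts in place of TMM 7 and 7. The difference from the other lists was not tested. Sqstm1, the cargo receptor p62, rose at 2 h alone, from 1027 and 1009 CPM in vehicle to 1739 and 1807 CPM, and held 989 and 947 CPM at 12 h. Its log2FC at 2 h was 0.80 ± 0.10 (SE, adjusted p = 0.0034 by edgeR). Ulk1, the kinase that starts autophagy, and its partner Atg101 rose at 2 h by log2FC of 0.70 and 0.52 (adjusted p = 0.011 and 0.033 by edgeR). The call of Ulk1 was lost without vehicle replicate 1 (adjusted p = 0.078), and that of Atg101 when any one library other than 2 h replicate 1 was left out (adjusted p up to 0.181). At 12 h Map1lc3a, a membrane-bound mark of autophagosomes, rose by a log2FC of 1.16, Calcoco1 by 0.84 and Atg9b by 0.79 (adjusted p = 0.0034, 0.0041 and 0.0039 by edgeR). Bnip3, a receptor for mitochondria, fell by 1.75 on the log2 scale (adjusted p = 0.0043 by edgeR).

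**Figure D4:**
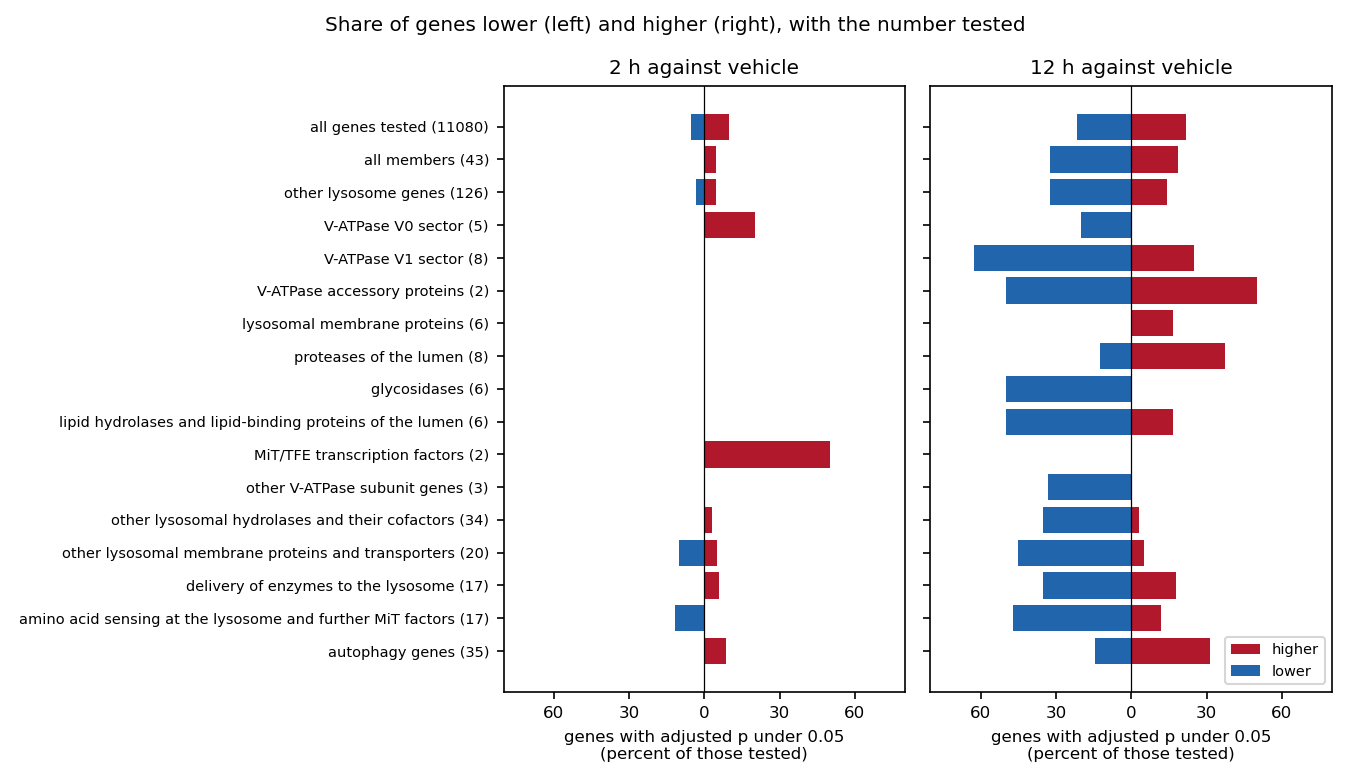
Percent of the tested genes of each list that were called lower (blue, left) or higher (red, right) at an adjusted p under 0.05, at 2 h and at 12 h against vehicle, with the number tested in parentheses. At 12 h the blue bar of the V1 sector reaches 62.5%, the red bar of the proteases 37.5%, and those of all genes tested 21.5% and 21.8%.

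**Figure D5:**
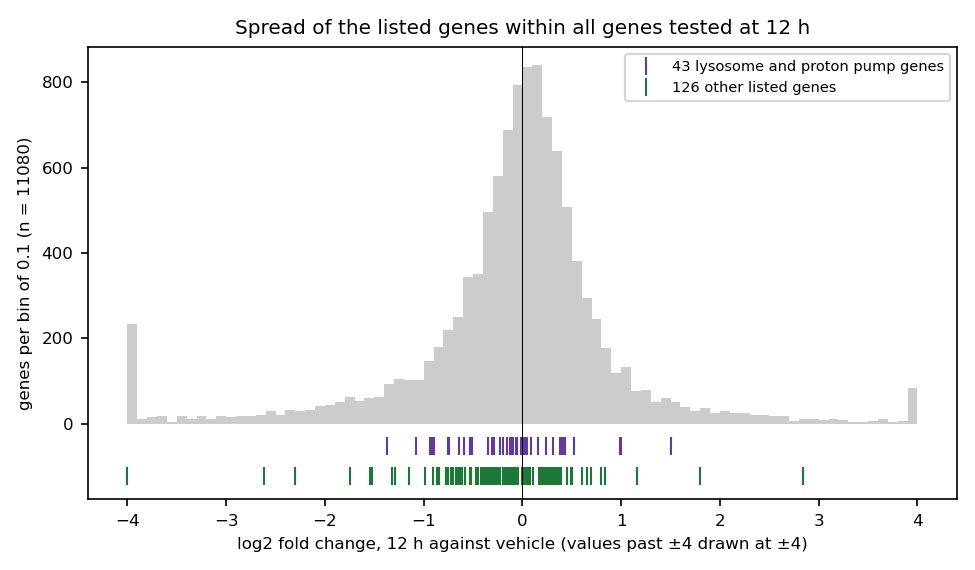
Histogram of the log2 fold change at 12 h against vehicle for all 11080 genes tested, in bins of 0.1, with a tick for each of the 43 members (purple) and each of the 126 other listed genes (green). The members span -1.37 to 1.51 around a median of -0.11, inside the range of the other listed genes, -4.36 to 2.84.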

How the data were processed

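The deposited table holds unnormalized counts of reads over 21240 genes in 6 libraries of NMuMG cells, vehicle, 2 h and 12 h TGFβ1, with 2 biological replicates each. According to the study's methods, the authors aligned 50-base reads to mm9 with subjunc, kept unique matches, removed duplicates with SAMtools 0.1.19, counted reads over KnownGenes exons by strand with featureCounts and discarded microRNAs. Counts nevertheless exceeded the number of exonic bases in at least 1 library for 31 of the 41 members with a position, so reads sharing a start were still counted. Every column of the table belonged to 1 of the 6 libraries.

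Counts were analysed with edgeR 4.0.16 in R 4.3.3: TMM factors, at least 2 CPM in at least 2 libraries, glmQLFit and glmQLFTest in a single fit of the 3 groups, and Benjamini-Hochberg adjustment within each contrast. P-values are two-sided. The SE of a log2FC is its size divided by the square root of F. CPM per library are TMM-normalized, without a pseudocount. Depth was 14705886 to 23786993 counts and TMM factors 0.961 to 1.07; with 2 libraries a group the precision rests on the spread shared over all 3 groups. Alternatives were limma-voom (limma 3.58.1), DESeq2 1.42.0, DESeq2 size factors, total counts, a minimum of 10 counts per library, all genes unfiltered, a replicate term, the 2 groups alone and leaving out each library.

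The members, the lists of other genes and the markers were chosen with earlier results of these data known. Members were named by a rule: in each comparison up to 10 called per direction by absolute log2FC, Tfeb, Tfe3, Lamp1, Lamp2, and the 2 members nearest to the threshold on each side, with all others accounted for by count; of the other genes, up to 5 per direction and comparison. Other genes named, such as Neu1's partners Ctsa and Glb1, were chosen after their values were seen. Positions, exon lengths and the share of exonic 50-base stretches found once came from GENCODE vM1 on NCBIM37 (mm9) for 41 members, all but Tfeb and Tfe3. RefSeq promoter windows (GRCm38.p6) were searched for CACGTG and TCACGTGA with Python 3.11.15. No window was used for Atp6v1b2, Atp6v1c1, Atp6v1g1, Atp6v1h, Npc1, Ctsb, Ctsh and Asah1. Summed CPM of the endothelial markers was 0.176 to 1.95 and of the adipocyte markers 0.103 to 0.303.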

Additional observations from a re-analysis of the deposited data

Results flagged for a closer look

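The response against vehicle differed between 2 h and 12 h of TGFβ1 in 20 of the 43 genes, by the contrast of 12 h with 2 h (edgeR, adjusted p under 0.05), which called 34.1% of all 11080 genes. Since both responses are measured against the same vehicle libraries, their difference is that contrast. The log2FC was 0.94 for Ctsl, 0.94 for Atp6v1g1, 0.83 for Ctsc and 0.77 for Cln3. Among the genes lower at 12 h it was -1.16 for Gaa, -1.07 for Ctsz, -1.06 for Atp6v0c, -1.02 for Tfeb and -1.01 for Neu1. In pump genes it was -0.82 for Atp6v0a1, -0.82 for Atp6v1b2, -0.81 for Atp6v1h, -0.66 for Atp6v1d, -0.64 for Atp6ap2, -0.54 for Atp6v1a, -0.40 for Atp6v0d1 and -0.39 for Atp6v1c1. The others were Ppt1 at -0.72, Grn at -0.45 and Hexa at -0.44. With 2 libraries in a group, no library could be tested as an outlier.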

How the results depend on the processing

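Over the 43 genes and 3 comparisons, 1700 of 1806 alternative fits stayed on the same side of the threshold, 65 lost the call, 41 gained it, and 0 turned a called direction. Among the 1700 were 1149 where neither fit called the gene, and in 59 of these the sign changed. Limma-voom, DESeq2 size factors in edgeR, the stricter filter and no filter changed no call of a member. DESeq2 called 2 members lower at 2 h (Neu1 and Cln3) in place of 0. With total counts in place of TMM, the median of all genes moved by -0.11 at 2 h, -0.13 at 12 h and -0.02 for 12 h against 2 h. At 2 h 2 members then fell. At 12 h 5 members rose and 19 fell (20.8% of calls higher in place of 36.4%). Of the other genes 3 rose and 7 fell at 2 h. At 12 h 9 of them rose in place of 18, and all 41 that fell in the main fit were still called. In fits of only the 2 groups compared, 1 member rose at 2 h, and 2 other genes rose and 1 fell.

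The labels do not say that replicate numbers pair the samples. With a replicate block, 2 members fell at 2 h (Neu1 and Cln3, adjusted p = 0.024 and 0.015 by edgeR) in place of 0, 3 rose in place of 2 (Atp6v1g1 was added, adjusted p = 0.0022 by edgeR), and 13 other genes rose and 12 fell at 2 h; it ended no call of a member and added 13. The share of all genes called with the block is not given, so these counts are not read as particular to the list. Deviations of same-numbered libraries correlated across genes, which are not independent, with r = 0.71 for vehicle with 2 h, 0.26 for vehicle with 12 h and 0.39 for the treated groups. Each group held 2 numbers.

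Leaving out each library in turn gave these ranges. The shares of all genes called in these fits are not given, so losses are not read as particular to the listed genes. At 2 h, 0 to 3 members rose and 0 to 1 fell, and 2 to 6 other genes rose and 0 to 8 fell. At 12 h, 2 to 8 members rose and 10 to 17 fell, and 6 to 18 other genes rose and 23 to 47 fell. At 12 h against 2 h, 1 to 4 members rose and 8 to 17 fell, and 2 to 9 other genes rose and 10 to 34 fell. A group left with 1 library was assumed to vary like the others. Depth limits Atp6v0c most, at 97 to 328 counts a library.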
